A study of Mus musculus with 6 samples.

Results

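The 9 genes described here act on collagen after its chains are made. They are the lysyl oxidases Lox, Loxl1, Loxl2, Loxl3 and Loxl4, the lysyl hydroxylases Plod1 and Plod2, the propeptide-cleaving protease Bmp1 and the collagen chaperone Serpinh1. They were picked by symbol from the collagen cross-linking and processing genes, with no expression value in the rule, though earlier results of these data were known, and all 9 were found by symbol among the 30406 genes listed for all 6 libraries.

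Procollagen chains are hydroxylated in the endoplasmic reticulum, where PLOD enzymes modify lysines and the chaperone encoded by Serpinh1 (HSP47) holds the folding triple helix. Outside the cell BMP1 cuts the carboxy-terminal propeptides, so that fibrils can form, and it also cleaves the LOX proenzyme to its active form. Lysyl oxidases then oxidise lysines and hydroxylysines of collagen, and LOX and LOXL1 also those of elastin, to the aldehydes from which covalent cross-links form. In bone and cartilage the hydroxylysines made by PLOD enzymes decide which kind of cross-link forms, and lesions in these genes are known from diseases of brittle bone and weak connective tissue.

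The nuclei came from the periosteum, the cell layer on the outer surface of bone, of the tibia of C57BL6 mice, 12 weeks old, males and females mixed, with no transgene in any group. The 2 uninjured libraries, the 2 libraries of day 3 after an open tibial fracture without fixation, and the single libraries of days 5 and 7 each pooled several mice, and the fractured samples included the hematoma. Nothing in the labels ties libraries to separate days or litters, so p-values measure the spread between these libraries only. Gene expression was measured by droplet single-nucleus RNA sequencing, which counts unique molecular identifiers (UMIs, 1 per captured transcript), mostly of unspliced nuclear RNA.

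The libraries held 655 to 4712 barcodes and 1499281 to 29796296 UMIs, and 6187 nuclei in 23 clusters remained after filtering and removal of muscle nuclei. Clusters carry a "-like" name from marker genes. The 3 exceptions are called by their 2 leading genes outside the 9: clusters closest to the IIFC class with no IIFC marker among their 10 leading genes, and 1 whose markers scored too low. Of the clusters named, 2 immune-like and 3 endothelial-like ones also had none of their class's markers among the 10 leading genes. Stromal-like nuclei are those of the SSPC-like (skeletal stem/progenitor), fibroblast-like, IIFC-like (injury-induced fibrogenic), osteoblast-like and chondrocyte-like clusters, with the Fgf7/Tspan11 and Taco1/Fbln2 clusters, whose closest class was IIFC. They numbered 130 and 351 before injury, 120 and 255 on day 3, 1108 on day 5 and 776 on day 7. Levels are given as CPM, the UMIs of a gene divided by all UMIs of the nuclei summed and scaled to 1e6, and intervals are exact Poisson 95% intervals that cover counting error only. No more than 7 barcodes were shared by any pair of libraries.

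Summed over the libraries, 8 of the 9 genes had most of their UMIs in stromal-like nuclei. Over the 6 libraries, 87.2% of the 7165 Plod2 UMIs lay there (exact binomial 95% interval 86.4 to 87.95), against 47.7% of the UMIs of all genes. The share was 88.9% for Loxl4, on only 99 UMIs, 83.4% for Loxl1, 81.7% for Bmp1, 81.5% for Loxl3, 81.2% for Loxl2, 71.5% for Lox and 70.3% for Serpinh1. Plod1 was the exception, with 42.9% of 1236 UMIs (40.1 to 45.7), below the share of all UMIs. The sums mix libraries whose share of all UMIs in stromal-like nuclei ran from 25.3% to 77.9%. Before injury Lox had only 21.1% and 33.6% of its UMIs there, below the 25.3% and 38.2% of all UMIs, and in each later library it stood above. Plod1 stood below the share of all UMIs in 4 libraries and slightly above it in day 3 replicate 2 (26.1% against 25.5%) and on day 7 (79.7% against 77.9%).

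**Figure D1:**
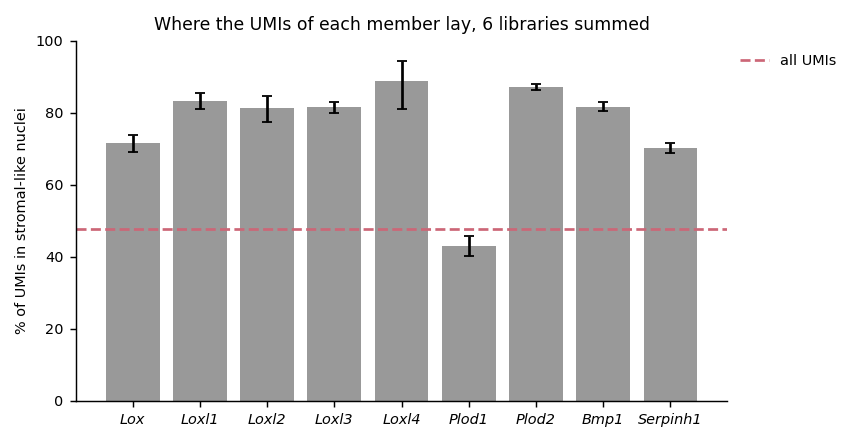
Percentage of the UMIs of each gene that lay in stromal-like nuclei, 6 libraries summed, with exact binomial 95% intervals; the dashed line is the percentage for the UMIs of all genes, 47.7%. Plod1, at 42.9%, is the one gene below the line.

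The question asked of days 0 and 3 was whether stromal-like nuclei make more of the collagen-modifying transcripts early after fracture. Counts summed per library over stromal-like nuclei were compared with edgeR's quasi-likelihood test across 9721 genes, with Benjamini-Hochberg adjustment and an adjusted p under 0.05 as the threshold. Of the 9 genes 8 passed the filter on low counts, and 3 of them, Lox, Loxl3 and Plod2, were called higher at day 3, where the same rule called 9.04% of all genes tested, 3.77% higher and 5.28% lower. None of the 8 was called lower. In 4 of the 8 (Lox, Loxl3, Plod2 and Bmp1) both day 3 libraries lay above both uninjured ones, as they did in 28.2% of all genes tested, and in Loxl2 both lay below, as in 23.3%. With 2 libraries against 2, an exact permutation test of a single gene cannot give a p under 0.333, so the calls rest on the spread that edgeR shares across genes.

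Lox encodes the lysyl oxidase itself, on chromosome 18 (ENSMUSG00000024529, 52516067 to 52529867 of GRCm38, minus strand). Its level in stromal-like nuclei was 34.6 and 24.1 CPM before injury. It was 88.5 and 157 CPM at day 3, then 112 on day 5 and 49.3 on day 7. The groups did not overlap, and the day 7 library lay between the uninjured and the day 3 ones. The mean was 29.4 ± 7.45 CPM uninjured and 123 ± 48.3 at day 3 (SD, n = 2 each), a log2 fold change of 2.08 ± 0.43 (SE; adjusted p = 0.0211 by edgeR's quasi-likelihood test). Without uninjured replicate 2 the log2 fold change was 1.76 and the call was lost (adjusted p = 0.159 by edgeR).

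Loxl3, a lysyl oxidase-like gene with scavenger receptor domains, spans 83034173 to 83052562 of chromosome 6 on the plus strand (ENSMUSG00000000693) and overlaps Htra2 on the opposite strand. Stromal-like nuclei held 77.9 and 81.0 CPM before injury, against 427 and 359 at day 3. At days 5 and 7 the level was 162 and 159 CPM, still above both uninjured libraries and below both day 3 libraries. Its log2 fold change at day 3 was 2.26 ± 0.36 (SE; adjusted p = 0.00904 by edgeR). It was the only one of the 3 calls that held with each of the 4 libraries left out in turn. Without uninjured replicate 2, where a single uninjured library was left, it passed only narrowly, at a log2 fold change of 2.30.

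Plod2, the hydroxylase of the collagen telopeptides, from which the pyridinoline cross-links of bone and cartilage are built, spans 92542223 to 92608428 of chromosome 9 (ENSMUSG00000032374, plus strand). The uninjured libraries had 152 and 112 CPM, the day 3 libraries 407 and 511, day 5 had 730.0 and day 7 had 594. Every library after fracture lay above both uninjured ones, and the 2 latest lay above both of day 3. The log2 fold change at day 3 was 1.76 ± 0.34 (SE; adjusted p = 0.0178 by edgeR), and without uninjured replicate 2 it was 1.54 (adjusted p = 0.0957).

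Both day 3 libraries and uninjured replicate 2 were made with Cell Ranger 7.1.0, and uninjured replicate 1 with 6.0.0. The gene lists differed too, and not along with the version. Both uninjured libraries and day 3 replicate 2 listed 31055 genes, day 3 replicate 1 and day 7 listed 32285, and day 5 listed 32287. Only the 30406 genes common to all were used. Among the 3 libraries of version 7.1.0 the log2 fold changes were 2.26 for Lox, 2.23 for Loxl3 and 1.97 for Plod2, and all 3 stayed called (adjusted p = 0.00972, 0.00329 and 0.00692 by edgeR). Days 5 and 7 used 6.0.0, so against the day 3 libraries their time point, version and single library cannot be told apart. Against uninjured replicate 1, and between days 5 and 7, the version was the same, though the gene lists differed. There the time point and the single library cannot be told apart.

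**Figure D2:**
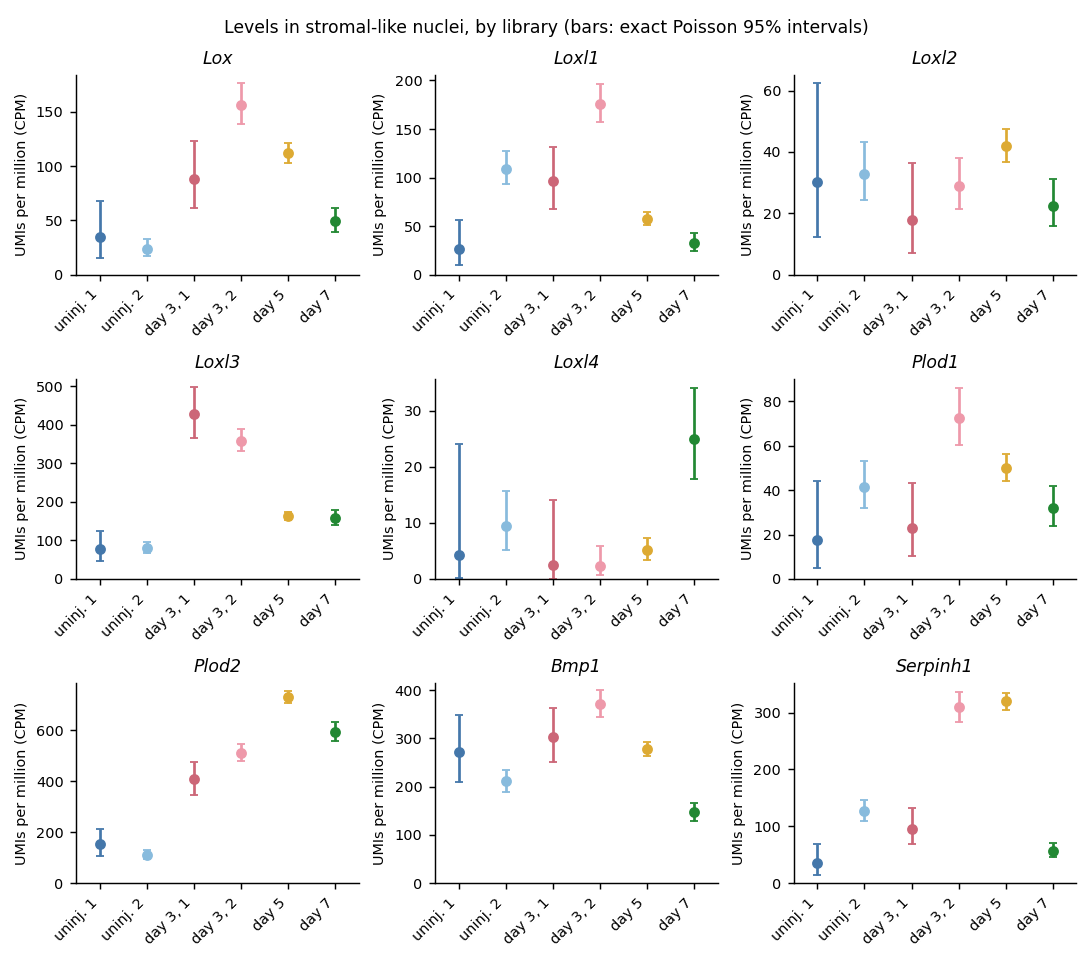
Level of each gene in the stromal-like nuclei of each library, in CPM, with exact Poisson 95% intervals; the colours mark the uninjured, day 3, day 5 and day 7 libraries. For Loxl3 the day 3 libraries, at 427 and 359 CPM, stand above all others, and for Plod2 the highest point is day 5, at 730.0 CPM.

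Bmp1, the procollagen C-proteinase, spans 70474558 to 70520234 of chromosome 14 (ENSMUSG00000022098, minus strand). It had 273 and 211 CPM in uninjured stromal-like nuclei, 303 and 372 on day 3, 278 on day 5 and 147 on day 7. The log2 fold change of 0.43 ± 0.32 (SE) did not pass the test (adjusted p = 0.511 by edgeR), although the groups did not overlap. The day 7 library was the lowest of the 6.

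Serpinh1 spans 99345376 to 99353239 of chromosome 7 (ENSMUSG00000070436, minus strand). Its stromal-like level was 34.6 and 127 CPM before injury, 96.0 and 309 on day 3, 320 on day 5 and 56.8 on day 7. Replicates of both groups differed more than 3-fold and overlapped, and the log2 fold change of 1.09 ± 0.57 (SE) was not called (adjusted p = 0.318 by edgeR). Loxl1, the elastin-associated lysyl oxidase on chromosome 9, also overlapped between groups, with 26.0 and 109 CPM uninjured and 96.0 and 176 at day 3. Its log2 fold change was 0.78 ± 0.52 (SE; adjusted p = 0.454 by edgeR).

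Loxl2 on chromosome 14, the enzyme that cross-links collagen IV of basement membranes, had 30.3 and 32.8 CPM uninjured and 17.7 and 28.9 at day 3 (log2 fold change -0.49 ± 0.51, SE; adjusted p = 0.654 by edgeR). Plod1 on chromosome 4, which hydroxylates lysines of the helical part of collagen, had 17.3 and 41.5 CPM uninjured and 22.7 and 72.5 at day 3 (0.49 ± 0.58, SE; adjusted p = 0.698 by edgeR). Loxl4 on chromosome 19 was not tested, as it held 1, 14, 1 and 4 UMIs in these libraries.

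Markers of other cell types in stromal-like nuclei also differed between the same groups. For immune cells the summed level, over 7 markers, was 8.66 and 13.4 CPM uninjured and 192 and 488 at day 3, and 5, 2, 1 and none of the 7 were at 0 in these 4 libraries. Immune-like nuclei themselves had 0 and 27.1 CPM of Lox, 60.1 and 41.4 of Loxl3 and 7.51 and 24.7 of Plod2 at day 3, each below the stromal-like level of the same library. Lower at day 3 without overlap were the 6 endothelial markers (169 and 81.7 CPM uninjured, 15.2 and 33.4 at day 3), the 6 pericyte/SMC markers (108 and 129.8, then 37.9 and 79.8) and the 6 myogenic markers (455 and 711, then 248 and 411). Their part in the calls was not tested. The Taco1/Fbln2 cluster had Loxl3 and Bmp1 among its leading genes, and Gm26917 and Gm42418 too. Gm42418 stood at 57634 CPM there, the highest of the 15 populations. The quality of these nuclei was not tested. The cluster had a median of only 942 UMIs a nucleus over all 6 libraries. In the libraries tested it held 12 and 8 nuclei uninjured (medians 602 and 704 UMIs) and 38 and 50 at day 3 (2189 and 4316). Without it the 3 calls remained, at log2 fold changes of 1.98 for Lox, 2.03 for Loxl3 and 1.79 for Plod2.

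Fewer or more nuclei of a population and less or more RNA of a gene in each cannot be told apart in sums over mixed populations. The Fgf7/Tspan11 cluster was the only stromal-like population with at least 20 nuclei in each of the 4 libraries (43 and 132 uninjured, 53 and 115 at day 3), and it was tested singly across 6525 genes, of which 5.98% were called, 2.51% higher and 3.46% lower. It was not uniform: when stromal-like nuclei were clustered again, of the 2 subclusters made up mainly of its nuclei Brinp1/Pdzrn4 held 26 and 29 nuclei uninjured and 60 and 74 at day 3, and Aldh1a2/Hmcn2 held 24 and 74 uninjured and 22 and 41 at day 3. Lox had 33.1 and 29.0 CPM uninjured and 103 and 179 at day 3 in Fgf7/Tspan11 nuclei, a log2 fold change of 2.30 ± 0.55 (SE; adjusted p = 0.0294 by edgeR). Loxl3 had 165 and 85.4 CPM uninjured and 376 and 381 at day 3 (1.84 ± 0.46, SE; adjusted p = 0.0366 by edgeR). Plod2 had 231 and 127 CPM against 515 and 432, without overlap, and missed the threshold at 1.59 ± 0.46 (SE; adjusted p = 0.0616 by edgeR). Day 3 lay above uninjured without overlap in 4 of the 7 genes tested (25% of all genes tested) and below in none (21.9%). Of the 7, 2 were called higher by edgeR and none by DESeq2, whose adjusted p was 0.147 for Lox and 0.0894 for Loxl3. By edgeR the Lox call was lost without uninjured replicate 2 (adjusted p = 0.195) and without day 3 replicate 2 (0.251), and the Loxl3 call without uninjured replicate 2 (0.231) and without day 3 replicate 1 (0.148).

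Serpinh1 was called in endothelial-like nuclei. They were the only other population with at least 20 nuclei in each library (212, 259, 40 and 64). These nuclei pooled 5 clusters whose mix differed between the groups. The cluster led by Adgrl4 and Rasgrp3 held 32 and 44 nuclei uninjured and 22 and 26 at day 3. The one led by Rasip1 and Egfl7 held 52 and 44, then 2 and 4. The part of this mix in the result was not tested. Of the 9 genes, 6 were among the 6827 tested there. Serpinh1 was the 1 called higher, where the rule called 3.54% of all genes tested, 1.67% higher and 1.87% lower. It had 11.9 and 35.0 CPM uninjured and 117 and 172 at day 3, on 5, 42, 11 and 85 UMIs, a log2 fold change of 2.43 ± 0.49 (SE; adjusted p = 0.0365 by edgeR). The call was lost without day 3 replicate 1 (adjusted p = 0.130 by edgeR) and without day 3 replicate 2 (0.273).

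Lox in endothelial-like nuclei had 28.5 and 20.0 CPM uninjured and 31.9 and 34.4 at day 3, a log2 fold change of 0.39 ± 0.58 (SE; adjusted p = 0.827 by edgeR). Loxl3 rested there on 4, 5, 5 and 15 UMIs and Bmp1 on 12, 30, 5 and 49, and their log2 fold changes of 2.49 ± 0.79 and 1.52 ± 0.48 (SE) did not pass (adjusted p = 0.139 and 0.137 by edgeR). Day 3 lay above uninjured without overlap in 5 of the 6 genes, all but Plod1, and in 27.1% of all genes tested, and it lay below in none, against 21% of all.

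Markers of other cells moved in endothelial-like nuclei too. The 6 osteoblast markers summed to 45.2 and 49.2 CPM uninjured and 266 and 233 at day 3, with 2, 3, 3 and none at 0, and the 7 immune markers to 4.75 and 44.2 CPM uninjured and 159 and 279 at day 3, with 5, none, 2 and none at 0. The 6 IIFC markers, collagen genes among them, overlapped, at 152 and 548 CPM uninjured and 415 and 893 at day 3. The part of these nuclei or transcripts in the Serpinh1 result was not tested. Of the other sets, the 6 fibroblast markers stood at 38.0 and 73.4 CPM uninjured and 85.0 and 109 at day 3. Lower at day 3 without overlap were the 5 SSPC markers (416 and 461, then 244 and 299.5 CPM) and the 6 chondrocyte markers (112 and 42.5, then 10.6 and 32.4). So were the 6 pericyte/SMC markers (188 and 106, then 21.3 and 22.3) and the 6 endothelial markers themselves (6023 and 6592, then 4082 and 5460.3).

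Whether the change differed between the stromal-like and endothelial-like nuclei was tested directly, in 1 fit over both. None of the 8 genes fitted passed by edgeR, where 4.61% of the 8551 genes tested did, and none of the 7 fitted passed between Fgf7/Tspan11 and endothelial-like nuclei, where 3.48% did. The difference of log2 fold changes, stromal-like minus endothelial-like, was 1.81 ± 0.61 for Lox (SE; adjusted p = 0.110 by edgeR), and -1.21 ± 0.50 for Serpinh1 (adjusted p = 0.244). In the first of these fits the unadjusted p of edgeR's quasi-likelihood test was under 0.05 for 4 genes, Lox, Serpinh1, Bmp1 and Loxl2, and Loxl2 was at 0 in 3 of the 4 endothelial-like sums.

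**Figure D3:**
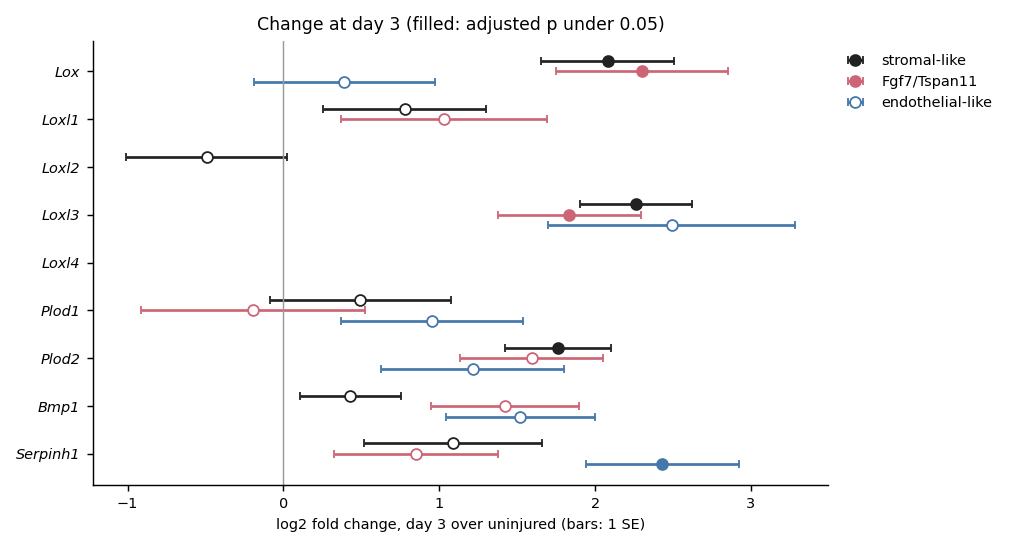
Log2 fold change from uninjured to day 3 with 1 SE, for the genes tested in stromal-like, Fgf7/Tspan11 and endothelial-like nuclei; filled points have an adjusted p under 0.05 by edgeR's quasi-likelihood test. Lox and Loxl3 are filled in stromal-like and Fgf7/Tspan11 nuclei, Plod2 in stromal-like nuclei only, and Serpinh1 in endothelial-like nuclei only, although no gene's change was shown to differ between stromal-like and endothelial-like nuclei.

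At days 5 and 7 there was 1 library each and no test. In the stromal-like sums, 8 of the 9 genes stood lower at day 7 than at day 5. The share of all genes that did so was not counted, so this number shows nothing particular to the 9. Serpinh1 showed the widest gap, with 320 CPM at day 5 (305 to 335) and 56.8 at day 7 (45.7 to 69.7), a ratio of 0.178. Lox at day 7 was 0.441 of its day 5 level, Bmp1 0.527, Plod2 0.813 and Loxl3 0.979, whose intervals overlapped. Loxl4 stood the other way, at 5.07 CPM on day 5 and 24.9 on day 7, from 28 and 40 UMIs. The day 7 nuclei were shallower, with a median of 1247.5 UMIs over all clustered nuclei against 2766 at day 5. The mix of stromal-like nuclei differed too, with 163 chondrocyte-like and 351 IIFC-like nuclei at day 5 and 244 and 156 at day 7. The part of depth and mix in these gaps was not tested.

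Populations differed in which of these genes they held, and because a population is defined by the same nuclei its levels are a description, with no test, although the 9 genes themselves were left out of the clustering. They are given for populations with at least 20 nuclei in a library. Chondrocyte-like nuclei reached that number on days 5 and 7 only, with 163 and 244 nuclei.

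Plod2 was highest in chondrocyte-like nuclei, at 1142 CPM on day 5 (1074 to 1214) and 1034 on day 7 (951 to 1121). IIFC-like nuclei followed, at 808 CPM on day 5 (771 to 846) and 496 on day 7 (434 to 564), and none of these intervals reached the chondrocyte-like ones of the same day. Tendon-like, Fgf7/Tspan11, osteoblast-like and Taco1/Fbln2 nuclei had 498 to 522 CPM on day 5 and did not differ beyond their intervals. Among the populations with both uninjured libraries Fgf7/Tspan11 nuclei were highest, at 231 and 127 CPM, while osteoblast-like nuclei, measured in uninjured replicate 2 only, had 265. SSPC-like nuclei had 53.6 and 55.7 CPM uninjured. They held 544 CPM in day 3 replicate 2, 432 at day 5 and 95.02 at day 7 (27, 59 and 54 nuclei). When stromal-like nuclei were clustered again, the Opcml/Dpp4 subcluster, with Pi16 among its leading genes, held 22 and 54 nuclei uninjured. It held 8, 15 and 19 in these later libraries, so most SSPC-like nuclei there lay outside it. The study did not detect SSPCs by their markers early after fracture. Whether SSPC-like nuclei before and after fracture are the same kind of cell was not tested. Immune-like nuclei stayed at or below 66.7 CPM in every library.

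Nuclei were also counted singly at a fixed depth, as the share with a Plod2 UMI. This share counts each nucleus once and is another measure than CPM, so the sizes of the gaps are not compared. After each nucleus was thinned to 500 UMIs, 38.0% of chondrocyte-like nuclei had a Plod2 UMI on day 5 (exact binomial interval 30.6 to 46.0) and 37.9% on day 7, against 28.2% (23.6 to 33.2) and 19.2% (13.4 to 26.3) of IIFC-like nuclei, so that the intervals overlapped on day 5 and not on day 7. Thinned to 1000 UMIs, the shares on day 5 were 58.5% (50.1 to 66.6) and 51.0% (45.6 to 56.4), which overlapped too. Immune-like nuclei, where Plod2 would not be looked for, had 1.54% and 1.90%. Median depths before thinning on day 5 were 4442 UMIs in chondrocyte-like, 5837 in IIFC-like and 1536.5 in immune-like nuclei, and the unthinned shares in chondrocyte-like nuclei were 88.3% and 73.4%.

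Loxl1 was low where Plod2 was highest. Chondrocyte-like nuclei had 8.79 CPM on day 5 (3.79 to 17.3) and 7.12 on day 7, from 8 and 4 UMIs. SSPC-like nuclei had 89.3 and 191 CPM uninjured, 238 in day 3 replicate 2, 84.1 on day 5 and 54.3 on day 7. As above, most SSPC-like nuclei of these later libraries lay outside the Opcml/Dpp4 subcluster. In each uninjured library SSPC-like nuclei were the highest of the populations measured, although in replicate 1, on 5 UMIs, the interval (29.0 to 209) overlapped that of pericyte/SMC-like nuclei (9.69 to 69.7). Fgf7/Tspan11 nuclei had 0 and 79.0 CPM uninjured. IIFC-like nuclei reached 279 CPM in day 3 replicate 2 and had 63.6 on day 5, and Taco1/Fbln2 nuclei had 160 and 219 at day 3. Endothelial-like nuclei stayed at or below 10.1 CPM and immune-like nuclei at or below 13.3.

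Loxl4 was found in chondrocyte-like nuclei above all. They held 50 of its 99 UMIs, at 23.1 CPM on day 5 (14.3 to 35.3) and 51.6 on day 7 (34.6 to 74.1). IIFC-like nuclei had 0.877 CPM on day 5 (0.106 to 3.17) and 2.12 on day 7. Osteoblast-like nuclei reached 56.1 CPM on day 7, on 4 UMIs, with an interval of 15.3 to 144 that takes in the chondrocyte-like one.

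Loxl3 on day 5 was also led by chondrocyte-like nuclei, at 288 CPM (254 to 325), above IIFC-like nuclei at 180 (163 to 198). On day 7 chondrocyte-like, Taco1/Fbln2 and IIFC-like nuclei, at 203, 198 and 163 CPM, overlapped. At day 3 every stromal-like population with at least 20 nuclei except the osteoblast-like one (111 CPM) had between 335 and 658 CPM of Loxl3. Fibroblast-like nuclei, marked by Luzp2 and found mainly in uninjured periosteum, had 10.5 and 18.9 CPM, below the other stromal-like populations of those libraries, on 1 and 4 UMIs.

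Loxl2 was likewise highest in chondrocyte-like nuclei on day 5, at 71.4 CPM (55.1 to 91.0), where IIFC-like nuclei at 48.2 (39.6 to 58.1) overlapped. On day 7 the chondrocyte-like level was 23.1 CPM. Uninjured SSPC-like nuclei had 53.6 and 38.5 CPM and fibroblast-like nuclei 20.9 and 61.5.

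Lox did not follow the chondrocytes. Osteoblast-like nuclei had the highest level on day 5, at 162 CPM (132 to 198), and chondrocyte-like nuclei had 96.6 (77.5 to 119). The osteoblast-like interval was overlapped by those of tendon-like nuclei, at 116 (88.5 to 149), and SSPC-like nuclei, at 103 (68.0 to 150). It was also overlapped by Skap1/Gm2682, the cluster whose markers scored too low, at 161 (52.2 to 375). On day 7 Fgf7/Tspan11, chondrocyte-like, IIFC-like and osteoblast-like nuclei, at 42.1 to 62.9 CPM, did not differ beyond their intervals. In uninjured periosteum the highest Lox level was in Schwann-like nuclei, the myelinating and ensheathing cells of nerves, with 192 and 114 CPM on 8 and 13 UMIs. Both values lay above those of every other population with both uninjured libraries, of which pericyte/SMC-like nuclei, at 41.8 and 41.9 CPM, were next by mean. Their intervals overlapped in both libraries (82.8 to 378 against 16.8 to 86.1, and 60.8 to 195 against 22.9 to 70.4).

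Bmp1 was high in osteoblast-like and low in chondrocyte-like nuclei. On day 5 osteoblast-like nuclei had 417 CPM (367 to 472) and chondrocyte-like nuclei 152 (127 to 179), and on day 7 they had 210.5 (118 to 347) and 81.8 (59.9 to 109). The Taco1/Fbln2 cluster, among whose leading genes Bmp1 ranked, had 498 CPM on day 5. Uninjured fibroblast-like nuclei had 440 and 265 CPM, both above the 161 and 246 of SSPC-like nuclei, with intervals that overlapped in replicate 2. Pericyte/SMC-like nuclei had 65.7 and 56.9 CPM uninjured, 265 on day 5 and 112 on day 7.

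Serpinh1 was highest in osteoblast-like nuclei on day 5, at 482 CPM (428 to 541), with chondrocyte-like nuclei at 403 (363 to 446), which overlapped it. On day 7 the values were 56.1 and 81.8, and the lower level at day 7 held in every population measured on both days. Endothelial-like nuclei had 245 CPM on day 5 and 39.9 on day 7, pericyte/SMC-like nuclei 235 and 0, and immune-like nuclei 95.3 and 0.

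Plod1 was not concentrated in stromal-like nuclei. Endothelial-like nuclei had 23.8 and 60.1 CPM uninjured, 31.9 and 128 at day 3, 85.2 on day 5 and 39.9 on day 7, and chondrocyte-like nuclei 82.4 and 33.8 on days 5 and 7. In uninjured periosteum Schwann-like nuclei had 72.0 and 70.3 CPM, from 3 and 8 UMIs. In each of the 5 populations measured in both day 3 libraries replicate 2 stood above replicate 1, with 53.7 against 12.1 CPM in Fgf7/Tspan11 nuclei.

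**Figure D4:**
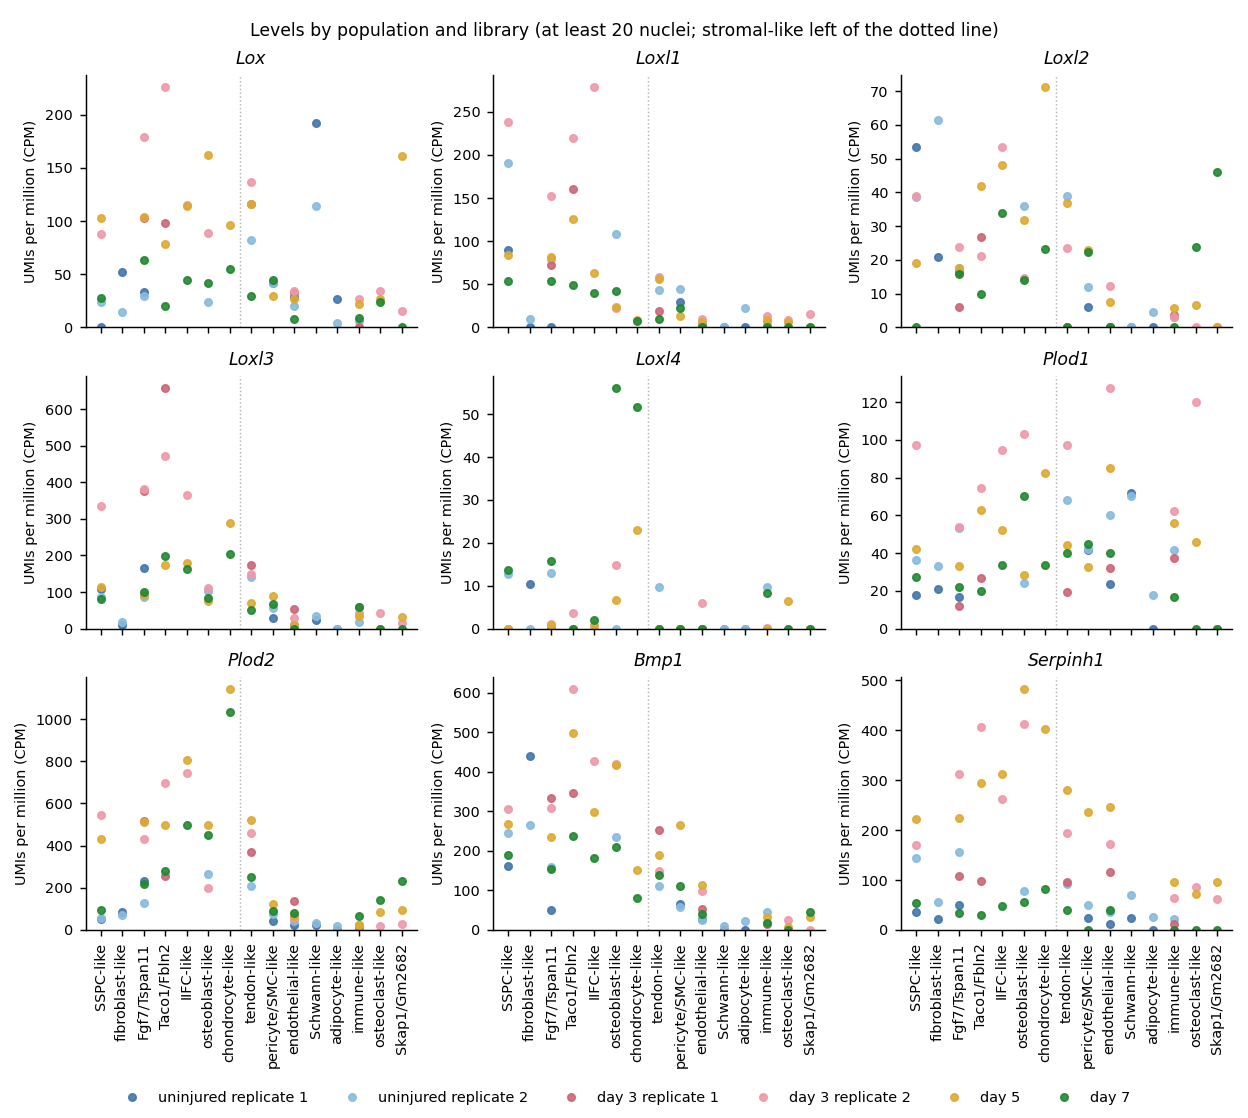
Level of each gene by population, in CPM, with 1 point per library that held at least 20 nuclei of the population; stromal-like populations stand left of the dotted line. Plod2 peaks in chondrocyte-like nuclei at 1142 and 1034 CPM, Loxl1 is near 0 there, and the 2 Schwann-like points of Lox, at 192 and 114 CPM, stand above the other uninjured points.

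The stromal-like nuclei clustered again by themselves gave 11 subclusters, called by their leading genes. The Hapln1/Col2a1 subcluster, 412 nuclei of which 95.6% were chondrocyte-like, had the highest Plod2 level, 1097 CPM over all libraries, and 7.79 of Loxl1. Osteoblast-like nuclei split in 2. The Col22a1/Rerg subcluster (125 nuclei) had 211 CPM of Lox (165 to 267), 559.5 of Bmp1 (482 to 646) and 506 of Serpinh1, and the Mylk/Fat3 subcluster (169 nuclei) had 73.2 (53.4 to 97.9), 259 and 294. As subclusters differed in their libraries, the comparison was also made within day 5. There Lox had 249 CPM (190.4 to 320) in Col22a1/Rerg and 111 (77.7 to 154) in Mylk/Fat3 nuclei. Bmp1 had 596 (503 to 701) and 281 (226 to 344), and Serpinh1 had 547 (458 to 648) and 432 (363 to 509), with intervals that overlapped.

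The Opcml/Dpp4 subcluster, 121 nuclei of which 88.4% were SSPC-like and 22 and 54 came from the uninjured libraries, had the highest Loxl1 level over all libraries, 204 CPM (169 to 245). Within uninjured replicate 2 it was also the highest, at 237 CPM (187 to 295), though the Lars2/Ttn interval (59.6 to 305) overlapped it, but in day 3 replicate 2, where it had 8 nuclei, the Enpp1/Vcl subcluster had 249.7 CPM (208 to 297), against 93.4 over all libraries. A further subcluster of 92 nuclei was led by the immune genes Dock2, Fyb, Mrc1 and Ptprc. Its Plod2 level of 478 CPM and Loxl3 level of 183 lay within the range of the other subclusters.

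**Figure D5:**
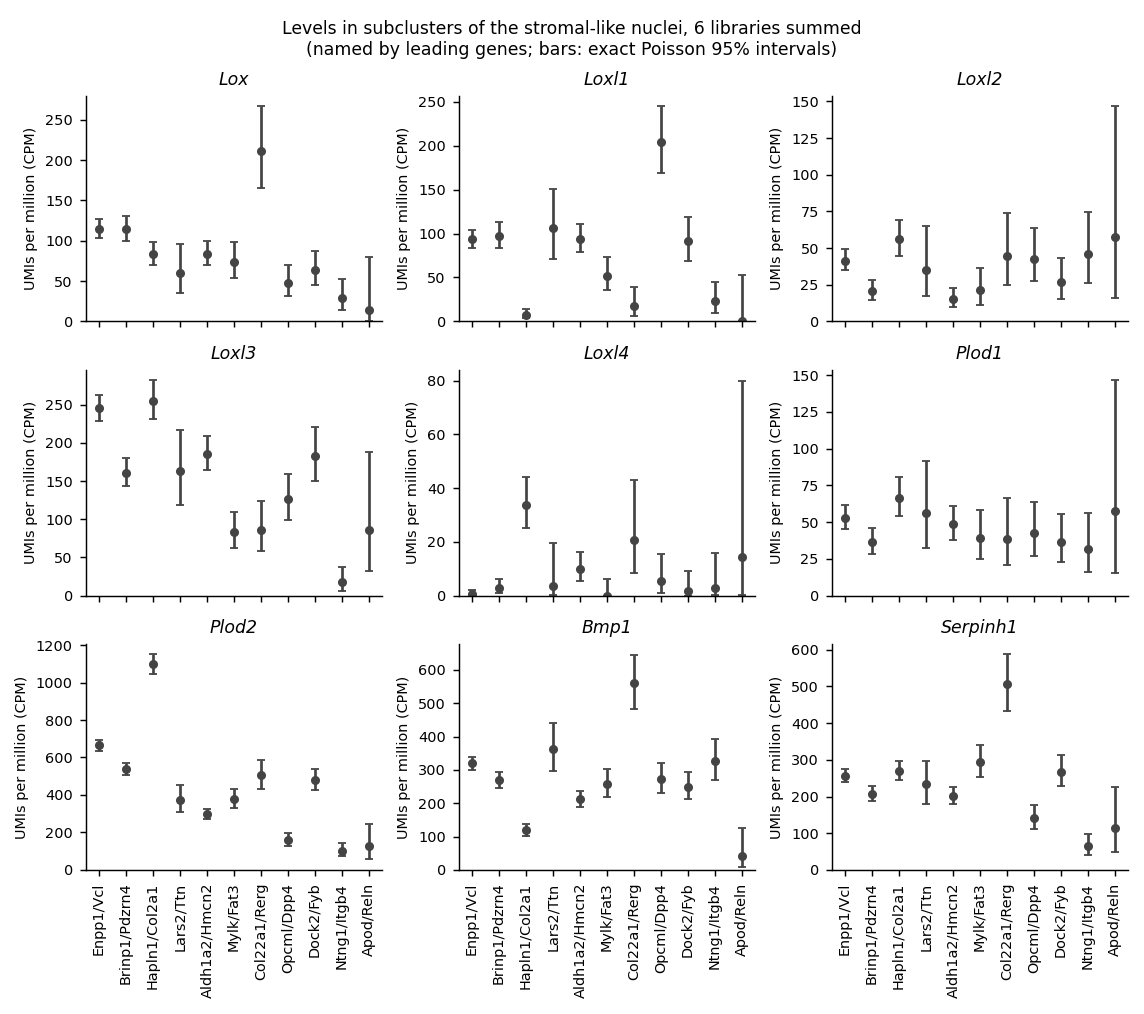
Level of each gene in the 11 subclusters of stromal-like nuclei, in CPM, 6 libraries summed, with exact Poisson 95% intervals. Lox and Bmp1 stand highest in the Col22a1/Rerg subcluster, at 211 and 559.5 CPM, Loxl1 in Opcml/Dpp4 at 204, and Plod2 in Hapln1/Col2a1 at 1097.

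Other genes of the collagen pathway were read from 4 lists with 42 genes in all, 41 of them tested in stromal-like nuclei. At day 3, 2 were called higher and 3 lower by edgeR, where 3.77% and 5.28% of all genes tested were, shares near those of the lists, and their median log2 fold change was 0.47, beside 0.01 over all genes tested and 0.93 over the 8 genes above. Among 13 genes of hydroxylation and its complexes 1 was called higher, P4ha3, a prolyl 4-hydroxylase subunit, with 4.33 and 24.8 CPM uninjured and 88.5 and 147 at day 3 (log2 fold change 2.57 ± 0.54, SE; adjusted p = 0.0227 by edgeR). Among 10 genes of chaperoning and secretion 1 was called higher, Creb3l1, a transcription factor that acts on collagen genes, with 26.0 and 22.1 CPM uninjured and 114 and 112 at day 3 (2.21 ± 0.42, SE; adjusted p = 0.0175 by edgeR).

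The 3 genes called lower were partners outside the cell. Of 6 tested genes of propeptide processing, Pcolce2, an enhancer of the C-proteinase that Bmp1 encodes, had 216 and 485 CPM uninjured and 43.0 and 35.1 at day 3 (log2 fold change -3.29 ± 0.48, SE; adjusted p = 0.00639 by edgeR). Of 12 fibril and elastic fibre partners, Eln, the elastin gene, had 195 and 216 CPM uninjured and 20.2 and 57.2 at day 3 (-2.42 ± 0.42, SE; adjusted p = 0.0118). Dcn, the proteoglycan decorin, had 844 and 2110.2 CPM uninjured and 174 and 444 at day 3 (-2.36 ± 0.53, SE; adjusted p = 0.0285). The collagen genes Col1a1 and Col1a2, named after their values were seen, had log2 fold changes of 1.20 and 1.39 that were not called (adjusted p = 0.150 and 0.168 by edgeR).

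Likeness of pattern was measured as Pearson's r of log2(CPM + 10) over 53 pairs of a library and a population, which share libraries, depths and population mix, and it is a description. Bmp1 was followed most closely by Gli3 (r = 0.915), Tshz3 (0.864) and Robo1 (0.856), and Plod2 by Sobp (0.881), Dnm3os (0.879) and Chsy3 (0.866). Loxl1 was most like Col3a1 (0.817), Lmx1a (0.802) and Lrrc17 (0.776), and Loxl3 most like Slc39a14 (0.802), Col5a1 (0.797) and Col3a1 (0.794). Serpinh1 was most like Ckap4 (0.801), Rpsa (0.776) and P3h3 (0.774). For Lox the nearest were Fkbp14 (0.741), Cdk7 and Mlec, for Plod1 Selenof (0.788), Rps13 and Clcn3, and for Loxl2 Gpc6 (0.711), Dtx3 and Sobp. Among the 28 pairs of the 8 genes r ran from 0.131, for Loxl2 and Plod1, to 0.73, for Loxl3 and Plod2.

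A RefSeq promoter was matched for 3 of the 9 genes, Serpinh1, Loxl4 and Plod1, and the 250 bases before the start (GRCm38.p6) are shown because their patterns differ: Serpinh1 was lower at day 7 than at day 5 in every population measured on both, chondrocyte-like nuclei held 50 of 99 Loxl4 UMIs, and Plod1 was spread over stromal-like and other nuclei. Capitals mark matches on either strand to ACGTG or GCGTG, the cores of hypoxia response elements, or to TATAAA, the core of the TATA box.
Serpinh1: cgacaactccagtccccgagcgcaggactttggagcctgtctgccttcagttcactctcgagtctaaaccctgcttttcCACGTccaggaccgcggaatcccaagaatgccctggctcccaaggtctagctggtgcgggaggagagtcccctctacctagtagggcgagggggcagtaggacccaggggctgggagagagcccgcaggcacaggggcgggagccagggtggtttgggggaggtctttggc
Loxl4: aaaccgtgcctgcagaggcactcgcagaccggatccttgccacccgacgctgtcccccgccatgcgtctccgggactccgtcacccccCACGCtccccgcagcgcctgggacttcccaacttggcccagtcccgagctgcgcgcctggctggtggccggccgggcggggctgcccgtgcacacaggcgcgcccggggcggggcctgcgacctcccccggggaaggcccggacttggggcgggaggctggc
Plod1: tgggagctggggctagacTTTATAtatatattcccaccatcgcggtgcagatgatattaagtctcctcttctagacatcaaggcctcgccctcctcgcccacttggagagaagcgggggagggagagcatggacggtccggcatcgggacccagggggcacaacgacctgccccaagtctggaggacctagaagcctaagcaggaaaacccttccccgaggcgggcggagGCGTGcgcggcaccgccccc
The 3 windows lie on minus strands, at chr7:99353240-99353489, chr19:42612807-42613056 and chr4:147936777-147937026. Serpinh1 held ACGTG once, beginning 171 bases before the start and on the opposite strand, as 16.6% of 32851 mouse promoters of this length hold it. Loxl4 held GCGTG once, on the opposite strand 162 bases before the start, and Plod1 once, on its own strand 20 bases before, as do 28.2% of promoters. The TATAAA of Plod1, on the opposite strand and present in 12.4% of promoters, begins 232 bases before the start. No window held GAANNTTC, the core of heat shock elements (6.7% of promoters), ACAAT (27.7%) or ACAAAG (16.5%), both bound by SOX factors. A match is letters only and draws nothing about binding.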

How the data were processed

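Nuclei of the periosteum were profiled in 6 libraries, as described above. The authors deposited, for each one, unnormalized UMI counts of every gene in every barcode, made with Cell Ranger (10x Chromium 3′ chemistry, intronic and exonic reads, mouse mm10), versions 6.0.0 (uninjured replicate 1, days 5 and 7) and 7.1.0 (the others). The files list no populations, so these were rebuilt.

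Barcodes were kept if they had between 200 and 5000 genes and if mitochondrial UMIs were below 2% and ribosomal ones below 1.5%, myogenic nuclei were removed, and the rest were integrated and clustered with Seurat 5.3.0 (20 components, resolution 1.3) without the 9 genes, the pathway lists and the markers. Names came from marker genes and may differ from those of the study. Scrublet marked 0 to 1.06% of barcodes, too few to count as working, and doublets were kept.

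Counts were summed per library and population (at least 20 nuclei in each library) and day 3 was compared with uninjured by edgeR 4.0.16 (low-count filter, TMM, quasi-likelihood test, no covariate) in R 4.3.3, with a two-sided test and Benjamini-Hochberg adjustment over all genes tested. The stromal-like test was also run on simulated counts, with known folds set in some genes. These were drawn at the means, library sizes and dispersion of the real sums, and the outcome is not given here. Gene positions are those of GRCm38. Named genes were the 9 genes, up to 3 called pathway genes in each direction with the largest changes in stromal-like nuclei, and the 3 genes most like each of the 8 tested in stromal-like nuclei, to which Col1a1 and Col1a2 were added after their values were seen. The 9 genes and the lists were chosen with earlier results of these data known. Alternatives were DESeq2 1.42.0, other filters, clusterings and doublet settings, and each library left out. Unlike the other alternatives, 5 were chosen after seeing the data (the highest Scrublet scores removed, Taco1/Fbln2 left out, tendon-like nuclei included, all barcodes summed, and the fit of differences between populations).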

Additional observations from a re-analysis of the deposited data

How the results depend on the processing

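In stromal-like nuclei 879 genes were called in all. Leaving out 1 library in turn gave 337 to 999 genes and 1 to 3 of the 9 genes higher, with 337 genes and Loxl3 alone without uninjured replicate 2. Without the low-count filter 1426 genes were called, and with all barcodes summed 389. Over all clustered nuclei only Loxl3 was called among the 9, and over all barcodes Loxl3 and Plod2 were. The directions that turned belonged to genes that were not called: Loxl2 had a log2 fold change of 0.36 over all barcodes, and Plod1 ranged from -0.37 (without day 3 replicate 2) to 1.43 with 1 library left out. In endothelial-like nuclei the genes called ran from 11 (without day 3 replicate 1) and 20 (without day 3 replicate 2) to 480, against 242, the 9 genes from 0 to 1, and Plod1 from -0.44 to 1.74. In Fgf7/Tspan11 nuclei they ran from 323 to 666, against 390, and from 1 to 3, with Plod1 from -0.62 to 0.13, and DESeq2 called 0 of the 9. The cause was not tested. A fit without a library assumes that the lone library of its group varies like the others.

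Plod2 in chondrocyte-like nuclei on day 5 had 1057 CPM with the wider mitochondrial and no ribosomal limit. Thinned to 1000 UMIs, 58.5% and 65.4% of chondrocyte-like nuclei had a Plod2 UMI on days 5 and 7, and 88.3% and 73.4% unthinned. Of 324 to 396 population levels per setting, 5 to 28 left their interval. No unnamed cluster was closest to a stromal class, so adding such clusters gave no value. No paired analysis was possible because the labels give no replicate numbers shared between groups. Genes with few UMIs, Loxl4 first, were limited by depth.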
